A study of Mus musculus with 75 samples.

Results

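The 10 genes described here encode chemokines and myeloid growth factors: Ccl2, Ccl5, Ccl7, Cxcl1, Cxcl2, Cxcl10, Cxcl16, Cx3cl1, Csf1, and Il34. They were taken by gene symbol from a table of counts with 32245 genes. All 10 had counts, while 4299 other genes were at 0 in all libraries. Whole-kidney RNA was sequenced from 75 mouse kidneys 3 days after unilateral ureteral obstruction (UUO), in which 1 ureter is ligated, with the contralateral (CL) kidney as the comparison. All mice were adult, and all received the analgesic carprofen, an inhibitor of prostaglandin synthesis. Both sexes were used, and the labels do not give the sex of a library. In the ABTAA arm, C57BL6/J or WT mice received ABTAA, an antibody that binds angiopoietin-2 and clusters it so that it activates the endothelial receptor TIE2 (8 IgG CL, 8 IgG UUO, 7 ABT CL, and 7 ABT UUO libraries). Their controls received human IgG Fc. In the Veptp arm, VeKO mice (Veptp iECKO) carried floxed Veptp, which encodes a phosphatase that silences TIE2, and the tamoxifen-inducible Cdh5-CreERT2, whose promoter is active in endothelium. Their littermate controls (VeWT) carried Veptp wt/lox and the same Cre but were not induced, so that tamoxifen and the deletion cannot be told apart in this arm. It held 7 VeWT CL, 8 VeWT UUO, 6 VeKO CL, and 8 VeKO UUO libraries. In the Pdgfb arm, PbKO mice (Pdgfb iKO) carried floxed Pdgfb and the tamoxifen-inducible Actb-CreERT2, which recombines throughout the body, and PbWT littermates carried Pdgfb wt/lox or lox/lox without Cre, with 4 libraries in each of the 4 groups. PbKO mice received tamoxifen before the experiment, and the paper does not say whether PbWT mice did. Cre and, if controls were not dosed, tamoxifen cannot be told apart from the deletion in this arm. Both genetic arms were on a mixed background, and the PbWT CL kidneys included 2 from sham-operated mice that the labels do not mark. Over all mice studied at 3 days in the ABTAA and Pdgfb arms, the paper lists more females than males among controls. Among treated or knockout mice of these arms it lists more males than females, so sex was not balanced between the compared mice.

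Chemokines guide leukocytes by binding G protein-coupled receptors, and they are grouped by the spacing of their first cysteines into CC, CXC, and CX3C families. CC chemokines mainly draw monocytes and lymphocytes, CXC chemokines with the ELR motif draw neutrophils, and CXCL16 and CX3CL1 are made as membrane-anchored proteins that can be shed. The growth factors CSF1 and IL34 bind a shared receptor, CSF1R, and keep monocytes and macrophages alive and dividing. In obstructed kidneys stressed tubular cells, endothelium, and infiltrating leukocytes are all known sources of these proteins.

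The members lie on 4 chromosomes of the mouse genome (GRCm38, GENCODE models). Ccl2 (chr11:82035571-82037453) and Ccl7 (chr11:82045712-82047525) are neighbors on the plus strand, 8258 bases apart, in the CC chemokine cluster that also holds Ccl5 (chr11:83525778-83530518, minus strand). Cxcl1 (chr5:90891241-90893115) and Cxcl2 (chr5:90903871-90905938) are likewise neighbors on the plus strand, 10755 bases apart, and Cxcl10 (chr5:92346638-92348889) lies on the minus strand of the same chromosome. Cxcl16 is at chr11:70453983-70459984 (minus strand), Cx3cl1 at chr8:94772009-94782427 (plus strand), Csf1 at chr3:107741048-107760469 (minus strand), and Il34 at chr8:110741829-110805924 (minus strand). On the opposite strand Ccl2 overlaps Gm17268, Cxcl10 overlaps Art3, Cxcl16 overlaps Zmynd15, and Il34 overlaps Gm15894 and Gm15895. Whether counting used strand is not stated, so reads of these genes and of their partners cannot be told apart. How reads that match several members of these gene families were counted is not stated either.

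Promoter sequence was at hand for 5 of the 10 members (RefSeq, GRCm38.p6). The 4 printed here are shown because these genes rose in UUO kidneys (Csf1 in all mice but PbKO), and that of Cx3cl1 is left out because annotated transcripts start within it. Each runs 5′ to 3′ on the strand of its gene and stops short of the first transcribed base, with capitals for matches to a motif. Cxcl1 spans chr5:90890995-90891240 (plus strand), Cxcl2 chr5:90903649-90903870 (plus strand), Cxcl10 chr5:92348890-92349139 (minus strand), and Csf1 chr3:107760470-107760719 (minus strand).
Cxcl1: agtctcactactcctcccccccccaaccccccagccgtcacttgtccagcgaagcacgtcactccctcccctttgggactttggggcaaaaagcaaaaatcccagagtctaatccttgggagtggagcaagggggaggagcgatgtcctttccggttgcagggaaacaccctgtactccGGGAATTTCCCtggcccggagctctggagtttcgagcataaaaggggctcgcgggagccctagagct
Cxcl2: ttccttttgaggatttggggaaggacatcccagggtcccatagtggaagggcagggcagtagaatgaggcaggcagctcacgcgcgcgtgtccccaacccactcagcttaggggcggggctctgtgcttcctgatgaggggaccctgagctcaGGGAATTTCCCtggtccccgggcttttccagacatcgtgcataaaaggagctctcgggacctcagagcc
Cxcl10: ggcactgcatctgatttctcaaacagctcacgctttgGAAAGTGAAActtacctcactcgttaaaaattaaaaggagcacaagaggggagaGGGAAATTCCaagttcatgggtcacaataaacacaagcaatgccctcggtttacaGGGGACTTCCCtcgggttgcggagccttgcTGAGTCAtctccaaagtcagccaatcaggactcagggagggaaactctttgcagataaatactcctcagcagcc
Csf1: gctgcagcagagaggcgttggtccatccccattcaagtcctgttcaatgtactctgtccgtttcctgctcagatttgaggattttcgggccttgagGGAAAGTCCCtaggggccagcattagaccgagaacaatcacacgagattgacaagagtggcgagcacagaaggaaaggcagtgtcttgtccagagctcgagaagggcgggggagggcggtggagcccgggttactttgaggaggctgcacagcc
The motifs searched on both strands were the NF-kappaB consensus, the AP-1 site TGANTCA, and the interferon-stimulated response element GAAANNGAAA, which NF-kappaB, AP-1, and interferon-activated factors are known to bind. Among 32851 windows of 250 bases before RefSeq starts, 7.25% held the first, 6.75% the second, and 2.98% the third. Cxcl1 and Cxcl2 held the same run of 11 letters, GGGAATTTCCC, which matches the NF-kappaB consensus on both strands, at 71 to 61 bases before the RefSeq start of Cxcl1 and at 97 to 87 bases before that of Cxcl2. Cxcl10, an interferon-inducible chemokine, held all 3 motifs, with NF-kappaB matches at 159 to 150 bases and, as 2 overlapping matches, at 104 to 94 bases before its start, an AP-1 match at 74 to 68 bases, and an interferon-stimulated response element at 213 to 204 bases. Csf1 held 1 NF-kappaB match, on the opposite strand at 154 to 145 bases. The window of Cx3cl1, which is not printed, held none of the 3 motifs, and this gene also rose with obstruction in all mice but VeKO. A match describes these letters and is not evidence that a factor was bound.

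Total counts ranged from 172827 to 2341800 per library, with a median of 757897, so that 1 count in the shallowest library is a large step for the rarer members. Values are given as CPM, that is, counts brought to a common library total scaled by the TMM method of edgeR. A difference was called when its p value from the quasi-likelihood F-test of edgeR, adjusted (Benjamini-Hochberg) over all genes tested in the arm, lay under 0.05, and log2 fold changes are given ± SE. Library names have 2 forms, 45 plain names such as B8 and 30 joined names, which have a low line between a letter and a number. All names of the Pdgfb arm are plain, and no source used here gives the meaning of the forms. The level of a gene often moved with the form: 40.3% of genes in the ABTAA arm and 61.0% in the Veptp arm differed between the forms. In the Veptp arm the numbers 3, 4, 7, and 8 in joined names carry opposite genotypes in the CL and the UUO kidney, so results of that arm are also given without those 8 libraries. The deleted genes gave no clear check of the labels. Ptprb, which encodes VE-PTP, differed by -0.69 ± 0.329 between VeKO and VeWT UUO kidneys and by -0.63 ± 0.360 between CL kidneys (adjusted p = 1.00 in both). In UUO libraries with joined names it stood at 12.7, 14.7, 21.0, and 27.6 CPM in VeKO and 26.2, 27.4, 27.4, and 34.4 CPM in VeWT mice, and in those with plain names at 28.6 to 66.1 CPM and 49.5 to 93.5 CPM, so VeKO libraries were mostly the lower ones within each form. Of the CL libraries with joined names labelled VeWT, the pair with the numbers 7 and 8, which carry opposite genotypes, were the lowest, at 31.7 and 28.5 CPM, against 37.2 and 61.5 CPM in the others and 29.2 to 35.9 CPM in VeKO. Pdgfb stood at 43.2 to 57.8 CPM in PbWT UUO and 33.4 to 40.6 CPM in PbKO UUO kidneys (log2 fold change -0.47 ± 0.211, adjusted p = 0.124). In CL kidneys it went against the deletion, at 4.43 to 19.9 CPM in PbWT and 16.6 to 24.9 CPM in PbKO (log2 fold change 0.78 ± 0.331, adjusted p = 1.00), and its response to UUO differed (-1.26 ± 0.393, adjusted p = 0.0461). Counts over a whole gene do not show whether the deleted exon was present. The sum of 5 tubule markers (Lrp2, Slc34a1, Umod, Slc12a3, and Aqp2) lay between 2941 and 11202 CPM over all libraries, so the libraries held kidney RNA.

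**Figure D1:**
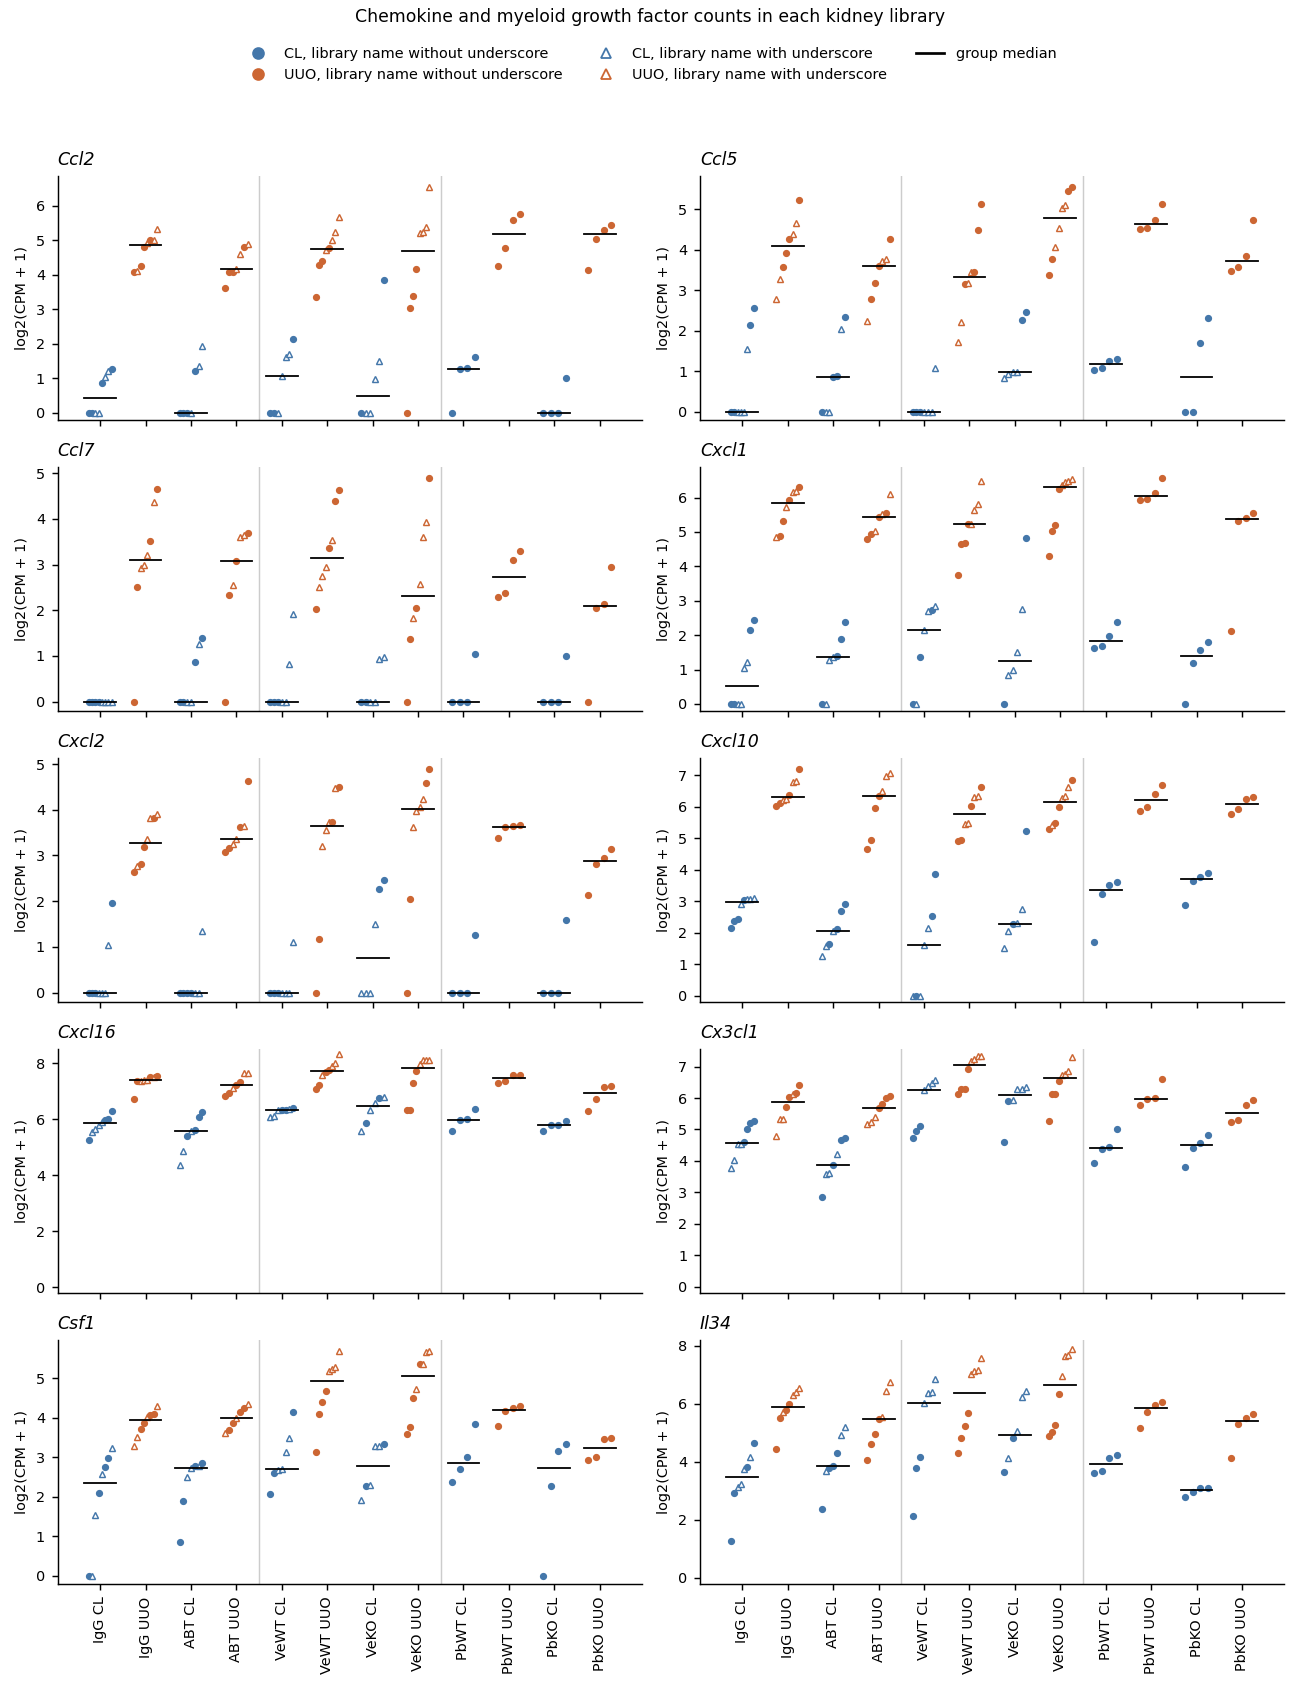
Level of each member in each of 75 kidney libraries, as log2(CPM + 1) on the vertical axis, by group on the horizontal axis. Blue marks CL and orange UUO kidneys, filled circles plain and open triangles joined library names, and black lines group medians. Ccl2, Ccl5, Ccl7, Cxcl1, and Cxcl2 lay near 0 in most CL kidneys and well above it in most UUO kidneys, while Cxcl16, Cx3cl1, and Il34 were present in every CL kidney.

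Nearly all members were higher in UUO than in CL kidneys in all 6 kinds of mice. Of the 7 members with enough counts to be tested in the ABTAA arm, 7 rose in UUO kidneys of IgG mice, where 16.0% of all genes tested rose, and 7 rose in ABT mice, where 12.7% did. Of the 10 tested in the Veptp arm, 9 rose in VeWT (background 10.0%) and 8 in VeKO mice (background 4.47%). Without the 8 libraries whose numbers carry opposite genotypes, 8 were called in VeWT mice, where 4.68% of all genes rose, and 2 in VeKO mice, where 0.852% did. The 6 members that lost the call in VeKO mice had log2 fold changes of 1.19 to 3.97 there, against 1.30 to 4.51 with all libraries, and the log2 fold changes of all members were above 0 in both genotypes. Without the filter on low counts, and with all libraries, 9 were called in VeWT mice (background 5.75%) and 8 in VeKO mice (background 2.54%). Of the 9 tested in the Pdgfb arm, 9 rose in PbWT (background 17.9%) and 8 in PbKO mice (background 3.94%). Most members passed the filter on low counts only through UUO kidneys, and 2, 3, and 2 members passed it on CL kidneys alone in the 3 arms, so the untested members (Ccl5, Ccl7, and Cxcl2 in the ABTAA arm and Ccl7 in the Pdgfb arm) were also fitted without the filter. All 10 then rose in IgG mice (background 7.89%), in ABT mice (background 6.48%), and in PbWT mice (background 9.44%), and 8 of 10 in PbKO mice (background 2.15%). Over all 10 members, fitted without the filter, the median log2 difference was 3.36 in IgG and 2.93 in ABT mice, 3.65 in VeWT and 3.62 in VeKO mice, and 3.63 in PbWT and 2.71 in PbKO mice, against medians of all genes between 0 and 0.02. The IgG value is the same with Ccl7, which had no CL count there, at its lower bound.

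Separation of the libraries was assessed over all 10 members, whether or not they passed the filter. Every UUO library exceeded every CL library for 7 of 10 in IgG mice (Ccl2, Ccl5, Cxcl1, Cxcl2, Cxcl10, Cxcl16, and Csf1), as it did for 1.99% of all genes with a count and 4.28% of those that passed the filter. In ABT mice 7 of 10 were separated, with Cx3cl1 in place of Ccl5 (1.86% and 3.99% of genes). The same held for 6 of 10 in VeWT mice (Ccl2, Ccl5, Ccl7, Cxcl1, Cxcl10, and Cxcl16; 1.80% and 3.26% of genes) and for 3 of 10 in VeKO mice (Ccl5, Cxcl10, and Csf1; 0.367% and 0.697% of genes). All members except Csf1 were separated in PbWT mice (9 of 10; 9.93% and 16.9% of genes), and all except Csf1 and Ccl7 in PbKO mice (8 of 10; 3.21% and 6.20% of genes). Whole-kidney RNA mixes all cells, and fewer cells of a type and less RNA per cell cannot be told apart.

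The scale mattered for the balance of all genes but for no direction of a member in UUO against CL kidneys, and it ended the call of Cx3cl1 in VeWT mice alone. Without TMM factors the higher and lower calls were 2390 and 1123 in IgG mice (1531 and 1759 with them), 1559 and 825 in ABT mice (1219 and 1201), 1367 and 550 in VeWT mice (1195 and 999), and 607 and 244 in VeKO mice (533 and 414). They were 4336 and 1166 in PbWT mice (1957 and 2119) and 560 and 156 in PbKO mice (430 and 262). The median of all genes then shifted to between 0.12 and 0.40 in the first 5 of these, which is small against the changes of the members.

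Markers of several cell types moved with obstruction. In IgG mice the sum of 9 macrophage and monocyte markers was 78.7 to 213 CPM in CL and 418 to 909 CPM in UUO kidneys, with 8 of 9 called higher, and the sum of 5 tubule markers was 7151 to 9995 CPM in CL and 3619 to 5689 CPM in UUO kidneys, with 4 of 5 called lower. All 4 fibroblast markers were higher. The 4 neutrophil markers were too rare to test, with median sums of 5.13 CPM in IgG CL and 9.14 CPM in IgG UUO kidneys, and markers of T and NK cells summed to 4.12 to 14.9 CPM and 15.6 to 42.2 CPM. The part of these markers in the responses of the members was not tested.

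**Figure D2:**
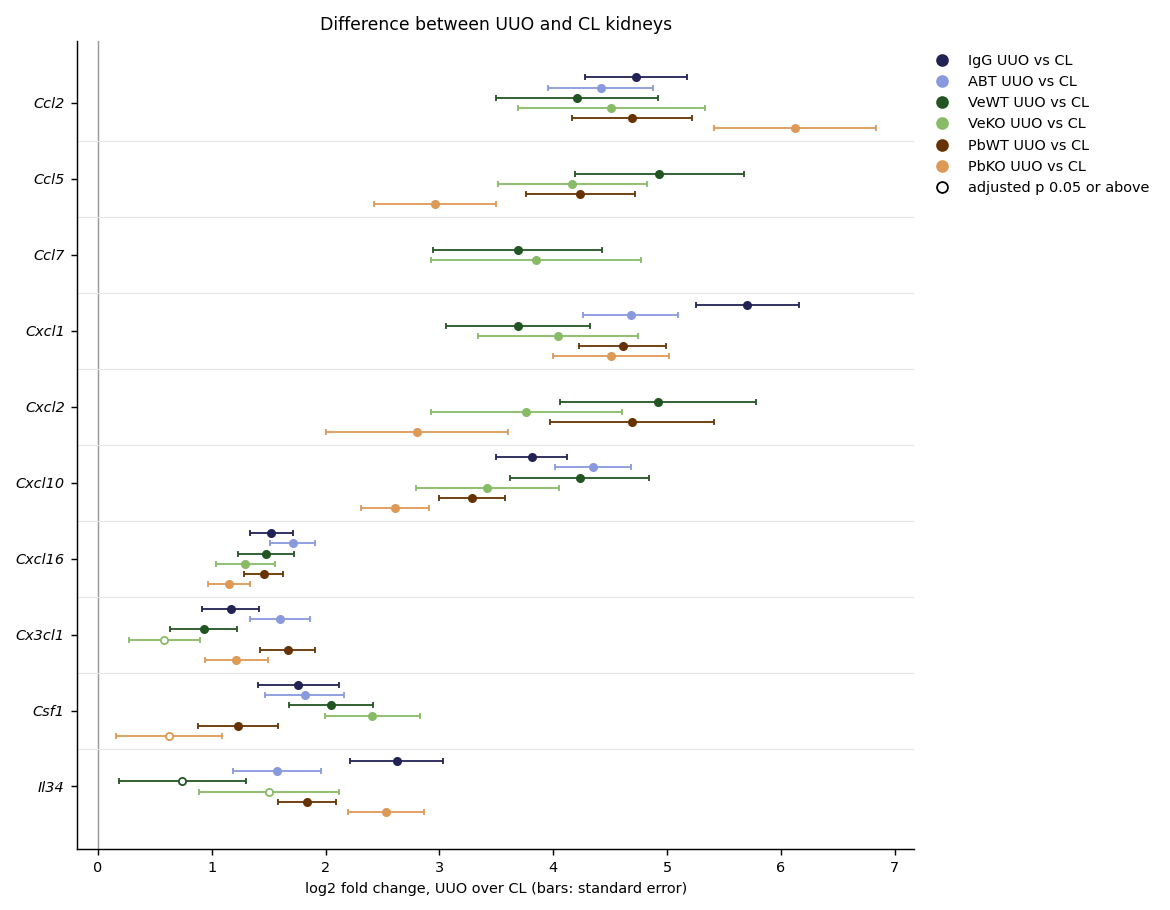
Log2 fold change of each member between UUO and CL kidneys (horizontal axis) in the 6 kinds of mice (colors), with standard errors as bars. Open points had an adjusted p of 0.05 or above, and members that did not pass the filter of an arm have no point there. All points lie above 0, with Ccl2, Ccl5, Ccl7, Cxcl1, Cxcl2, and Cxcl10 between 2.61 and 6.12 and Cxcl16, Cx3cl1, Csf1, and Il34 between 0.58 and 2.62.

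Ccl2 encodes the main attractant of CCR2-bearing monocytes. In IgG mice it stood at 0 to 1.44 CPM (median 0.412) in CL kidneys and at 16.0 to 39.4 CPM (median 28.1) in UUO kidneys, a log2 fold change of 4.73 ± 0.448 (adjusted p = 7.3e-12). The groups did not overlap, and the 8 CL libraries held 4 counts in all, with none in 4 of them. In ABT mice it rose from 0 to 2.81 CPM (median 0) to between 11.2 and 28.6 CPM (median 16.8; log2 fold change 4.42 ± 0.461, adjusted p = 1.65e-10). In VeWT mice it was 0 to 3.37 CPM (median 1.12) in CL and 9.21 to 50.5 CPM (median 25.9) in UUO kidneys (log2 fold change 4.20 ± 0.712, adjusted p = 4.58e-05). VeKO libraries overlapped, with 0 to 13.5 CPM (median 0.481) in CL and 0 to 91.7 CPM (median 26.5) in UUO kidneys (log2 fold change 4.51 ± 0.821, adjusted p = 0.000404). The CL kidney at 13.5 CPM, library B8, rested on 3 counts, and it also held the highest macrophage and monocyte sum of its group, 415 CPM. In PbWT mice the CL libraries stood at 0, 1.39, 1.48, and 2.09 CPM and the UUO libraries at 18.2, 26.2, 47.0, and 52.7 CPM (log2 fold change 4.69 ± 0.528, adjusted p = 3.83e-08). PbKO CL libraries held 1 count of Ccl2 in all, at 0, 0, 0, and 0.997 CPM, against 16.7, 32.0, 38.1, and 42.7 CPM in UUO kidneys (adjusted p = 1.47e-06). The ratio of the pooled values was 93.7 with a 95% counting interval of 16.5 to 3730, which covers counting error only.

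Ccl7 encodes a further ligand of CCR2 and of other CC receptors. It was not detected in any of 8 IgG CL libraries and stood at 0 to 24.1 CPM (median 7.58) in IgG UUO libraries, so that it was at least 14.0-fold higher when the CL group is set at 3 counts. Detection was nearly complete after obstruction, with counts in 7 of 8 libraries. Without the filter its rise had an adjusted p of 4.86e-09 in IgG mice and 3.8e-05 in ABT mice, where it was 0 to 1.62 CPM in CL and 0 to 11.9 CPM (median 7.47) in UUO kidneys. VeWT UUO libraries (3.09 to 23.9 CPM, median 7.97) all lay above VeWT CL libraries (0 to 2.76 CPM, median 0), for a log2 fold change of 3.69 ± 0.739 (adjusted p = 0.000315). VeKO libraries held 0 to 0.961 CPM in CL and 0 to 28.7 CPM (median 4.06) in UUO kidneys (log2 fold change 3.85 ± 0.924, adjusted p = 0.00551). In the Pdgfb arm Ccl7 was fitted without the filter alone. It stood at 0, 0, 0, and 1.05 CPM in PbWT CL and 3.92, 4.17, 7.54, and 8.78 CPM in PbWT UUO libraries (adjusted p = 5.32e-05), with a ratio of 21.0 and a counting interval of 3.58 to 848 on 1 CL count. In PbKO mice the values were 0, 0, 0, and 0.997 CPM against 0, 3.13, 3.42, and 6.72 CPM, which overlapped, and the difference was not called (adjusted p = 0.108).

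Ccl5, which draws T cells and monocytes, had few counts in CL kidneys. In IgG mice it was at 0 to 4.94 CPM (median 0) in CL and 5.85 to 36.2 CPM (median 16.2) in UUO libraries, which did not overlap (log2 fold change without the filter 3.11 ± 0.474, adjusted p = 6.61e-09). ABT libraries held 0 to 4.02 CPM (median 0.809) in CL and 3.73 to 18.2 CPM (median 11.2) in UUO kidneys (log2 fold change without the filter 2.84 ± 0.507, adjusted p = 1.7e-06). The lowest ABT UUO library lay just below the highest ABT CL library. VeWT libraries rose from 0 to 1.12 CPM (median 0) to between 2.28 and 34.0 CPM (median 9.00), with a log2 fold change of 4.93 ± 0.739 (adjusted p = 9.34e-06). VeKO libraries rose from 0.789 to 4.52 CPM (median 0.968) to between 9.45 and 45.7 CPM (median 27.0), with a log2 fold change of 4.17 ± 0.655 (adjusted p = 7.1e-05). Every VeKO CL library held exactly 1 count of Ccl5, and 6 of 7 VeWT CL libraries held none. In PbWT mice the CL libraries stood at 1.05, 1.11, 1.39, and 1.48 CPM and the UUO libraries at 22.0, 22.2, 25.6, and 34.3 CPM (log2 fold change 4.24 ± 0.478, adjusted p = 3.29e-08). In PbKO mice the values were 0, 0, 2.27, and 3.99 CPM in CL and 10.1, 10.9, 13.3, and 25.6 CPM in UUO libraries (log2 fold change 2.96 ± 0.538, adjusted p = 0.000678).

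Cxcl1 and Cxcl2, neighbors with the shared promoter run printed above, encode ELR chemokines that draw neutrophils through CXCR2. Cxcl1 gave the largest log2 fold change of the tested members in IgG mice, 5.70 ± 0.450 (adjusted p = 4.03e-14), from 0 to 4.44 CPM (median 0.53) in CL to 28.1 to 78.5 CPM (median 55.9) in UUO libraries. The groups were far apart here and in ABT mice, at 0 to 4.19 CPM (median 1.55) and 26.7 to 67.5 CPM (median 42.1; log2 fold change 4.68 ± 0.413, adjusted p = 1.98e-12). In VeWT mice it was 0 to 6.20 CPM (median 3.42) in CL and 12.5 to 87.5 CPM (median 36.8) in UUO libraries (log2 fold change 3.69 ± 0.631, adjusted p = 6.45e-05). In VeKO mice it was 0 to 27.1 CPM (median 1.41) in CL and 18.8 to 92.0 CPM (median 77.8) in UUO libraries (log2 fold change 4.04 ± 0.703, adjusted p = 0.000313). These overlapped through a single CL kidney, library B8, at 27.1 CPM. PbWT libraries rose from 2.09, 2.22, 2.95, and 4.18 CPM to 59.6, 60.7, 68.6, and 93.5 CPM (log2 fold change 4.61 ± 0.381, adjusted p = 2.92e-10). PbKO libraries rose from 0, 1.28, 1.99, and 2.50 CPM to 3.34, 39.2, 41.4, and 46.1 CPM (log2 fold change 4.51 ± 0.512, adjusted p = 1.19e-06).

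Cxcl2 was rarer than the filter allowed in the ABTAA arm. IgG CL libraries held 3 counts of it in all (0 to 2.87 CPM, median 0) and IgG UUO libraries stood at 5.21 to 13.9 CPM (median 8.69), a pooled ratio of 16.4 with a counting interval of 5.23 to 82.6 (adjusted p = 1.74e-07 without the filter). ABT CL libraries held 1 count (0 to 1.55 CPM) and ABT UUO libraries 7.47 to 23.7 CPM (median 9.34; adjusted p = 4.56e-10 without the filter). UUO and CL libraries were apart in both. VeWT libraries stood at 0 to 1.14 CPM (median 0) in CL and 0 to 21.5 CPM (median 11.5) in UUO kidneys (log2 fold change 4.92 ± 0.862, adjusted p = 6.63e-05), and VeKO libraries at 0 to 4.52 CPM (median 0.920) and 0 to 28.7 CPM (median 15.2; log2 fold change 3.76 ± 0.841, adjusted p = 0.00320). In UUO kidneys 1 library of each genotype held no count. Summed neutrophil markers stood far apart in a pair of VeWT UUO libraries, at 88.5 CPM in C9 and 101 CPM in G9 against 0.409 to 9.21 CPM in the others, and these libraries held 1.25 and 0 CPM of Cxcl2 and 12.5 and 23.9 CPM of Cxcl1, the lowest values of their group. In PbWT mice Cxcl2 rose from 0, 0, 0, and 1.39 CPM to 9.41, 11.3, 11.5, and 11.8 CPM (log2 fold change 4.69 ± 0.723, adjusted p = 4.29e-06). In PbKO mice it rose from 0, 0, 0, and 1.99 CPM to 3.36, 5.98, 6.67, and 7.81 CPM (log2 fold change 2.80 ± 0.799, adjusted p = 0.0314). It was no longer called without any single one of 5 PbKO libraries (CL replicates 1, 2, and 3 and UUO replicates 3 and 4), with adjusted p from 0.0535 to 0.119, in DESeq2 (adjusted p = 0.0728), or in a fit over all 12 groups (adjusted p = 0.197).

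Cxcl10 encodes an interferon-inducible ligand of CXCR3, a receptor on activated T and NK cells. It had counts in all CL libraries except 3 VeWT ones. In IgG mice it rose from 3.42 to 7.62 CPM (median 6.87) to between 64.0 and 145 CPM (median 77.4), a log2 fold change of 3.81 ± 0.310 (adjusted p = 7.49e-12). In ABT mice it rose from 1.4 to 6.47 CPM (median 3.10) to between 24.1 and 134 CPM (median 80.3), a log2 fold change of 4.35 ± 0.336 (adjusted p = 2.18e-12). The lowest UUO library in either group was several times the highest CL library. VeWT libraries stood at 0 to 13.5 CPM (median 2.07) in CL and 29.2 to 98.2 CPM (median 53.7) in UUO kidneys (log2 fold change 4.23 ± 0.613, adjusted p = 9.31e-06). VeKO libraries stood at 1.84 to 36.1 CPM (median 3.87) in CL and 37.8 to 115 CPM (median 69.5) in UUO kidneys (log2 fold change 3.42 ± 0.629, adjusted p = 0.000610). The VeKO groups came close to each other through library B8, the highest CL kidney, at 8 counts. PbWT libraries rose from 2.22, 8.38, 10.3, and 11.2 CPM to 57.1, 62.7, 83.4, and 103 CPM (log2 fold change 3.29 ± 0.290, adjusted p = 3.77e-09). PbKO libraries rose from 6.39, 11.3, 12.5, and 14.0 CPM to 53.4, 59.8, 74.0, and 77.3 CPM (log2 fold change 2.61 ± 0.300, adjusted p = 3.44e-06).

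The membrane-anchored chemokines were well covered in CL kidneys and changed less. Cxcl16, the ligand of CXCR6 and a scavenger receptor for oxidized lipoprotein, stood at 37.6 to 78.2 CPM (median 56.9) in IgG CL and 104 to 187 CPM (median 168) in IgG UUO libraries, a log2 fold change of 1.52 ± 0.189 (adjusted p = 9.31e-08). In ABT mice it was 19.7 to 75.3 CPM (median 46.3) in CL and 113 to 200.1 CPM (median 147) in UUO libraries (log2 fold change 1.71 ± 0.199, adjusted p = 5.36e-08). Neither pair of groups overlapped. VeWT libraries rose from 66.7 to 84.1 CPM (median 79.2) to between 133 and 317 CPM (median 210.2), a log2 fold change of 1.48 ± 0.248 (adjusted p = 7.67e-05). VeKO libraries overlapped, at 46.8 to 109 CPM (median 87.0) in CL and 78.7 to 276 CPM (median 230.1) in UUO kidneys (log2 fold change 1.30 ± 0.261, adjusted p = 0.00182). PbWT libraries rose from 47.2, 61.0, 62.8, and 80.9 CPM to 154, 164, 188, and 189 CPM (log2 fold change 1.46 ± 0.170, adjusted p = 2.21e-07). PbKO libraries rose from 46.9, 54.4, 55.0, and 60.1 CPM to 76.7, 103, 140, and 143 CPM (log2 fold change 1.15 ± 0.186, adjusted p = 0.000310).

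Cx3cl1 encodes fractalkine, the ligand of CX3CR1 on monocytes and resident macrophages. In IgG mice it was 12.6 to 37.6 CPM (median 22.7) in CL and 26.9 to 84.5 CPM (median 57.7) in UUO libraries (log2 fold change 1.17 ± 0.249, adjusted p = 0.000330). In ABT mice it was 6.28 to 25.5 CPM (median 13.8) in CL and 35.5 to 66.2 CPM (median 50.4) in UUO libraries (log2 fold change 1.60 ± 0.261, adjusted p = 1.7e-05). The IgG groups overlapped and the ABT groups did not. VeWT libraries stood at 25.3 to 94.5 CPM (median 75.2) in CL and 68.6 to 161 CPM (median 132) in UUO kidneys (log2 fold change 0.93 ± 0.296, adjusted p = 0.0256). VeKO libraries stood at 23.0 to 80.8 CPM (median 68.5) in CL and 37.8 to 158 CPM (median 99.5) in UUO kidneys, which was not called (log2 fold change 0.58 ± 0.313, adjusted p = 0.305). The form of the library name ran through both genotypes, and with it as a covariate the VeKO difference was 0.73 and was called (adjusted p = 0.00178). The VeWT call was lost without the 8 libraries whose numbers carry opposite genotypes (log2 fold change 1.05, adjusted p = 0.0985), without TMM factors (1.04, adjusted p = 0.0662), and without any single one of 5 VeWT libraries (CL replicates 1, 2, and 3 and UUO replicates 5 and 8, adjusted p from 0.0514 to 0.0571). PbWT libraries rose from 14.4, 19.9, 20.9, and 31.0 CPM to 53.3, 61.3, 62.7, and 96.0 CPM (log2 fold change 1.67 ± 0.240, adjusted p = 4.25e-06). PbKO libraries rose from 13.0, 20.5, 22.7, and 27.5 CPM to 37.0, 38.3, 53.8, and 60.0 CPM (log2 fold change 1.21 ± 0.278, adjusted p = 0.00900). The PbKO call was lost without PbKO CL replicate 4 (adjusted p = 0.0608), when thinned (adjusted p = 0.0828), and over all 12 groups (adjusted p = 0.152).

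The ligands of CSF1R followed. Csf1, the macrophage colony-stimulating factor, stood at 0 to 8.42 CPM (median 4.12) in IgG CL and 8.77 to 18.5 CPM (median 14.4) in IgG UUO libraries (log2 fold change 1.76 ± 0.353, adjusted p = 0.000130). In ABT mice it was 0.809 to 6.28 CPM (median 5.61) in CL and 11.2 to 19.4 CPM (median 14.9) in UUO libraries (log2 fold change 1.81 ± 0.345, adjusted p = 0.000113). The IgG groups just failed to touch and the ABT groups were well apart, though with joined names alone the ABT difference was not called (log2 fold change 1.48, adjusted p = 0.0565). In VeWT mice it was 3.18 to 16.8 CPM (median 5.51) in CL and 7.73 to 50.4 CPM (median 29.8) in UUO libraries (log2 fold change 2.04 ± 0.369, adjusted p = 0.000161). In VeKO mice it was 2.76 to 9.03 CPM (median 6.30) in CL and 11.0 to 50.0 CPM (median 32.7) in UUO libraries (log2 fold change 2.41 ± 0.414, adjusted p = 0.000318). In PbWT mice it rose from 4.19, 5.54, 6.97, and 13.3 CPM to 12.7, 16.9, 17.9, and 18.6 CPM, with an overlap of 1 library (log2 fold change 1.23 ± 0.348, adjusted p = 0.00667). In PbKO mice, with 0, 3.84, 7.98, and 9.07 CPM in CL and 6.67, 7.03, 10.1, and 10.3 CPM in UUO libraries, the groups overlapped, and the difference was not called (log2 fold change 0.62 ± 0.467, adjusted p = 0.497). The responses of PbKO and PbWT mice were not called different either (-0.61 ± 0.608, adjusted p = 0.618). The VeKO call was lost without the 8 libraries whose numbers carry opposite genotypes (log2 fold change 1.92, adjusted p = 0.0790).

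Il34, the second ligand of CSF1R, made by tubular epithelium among other cells, was present in every library. In IgG mice it stood at 1.44 to 23.9 CPM (median 10.4) in CL and 20.8 to 92.0 CPM (median 58.3) in UUO kidneys (log2 fold change 2.62 ± 0.409, adjusted p = 4.01e-06), and in ABT mice at 4.18 to 35.7 CPM (median 13.4) and 15.9 to 107 CPM (median 43.9; log2 fold change 1.57 ± 0.384, adjusted p = 0.00212). Both pairs overlapped. VeWT libraries ranged from 3.37 to 113 CPM (median 64.3) in CL and from 18.6 to 191 CPM (median 89.8) in UUO kidneys (log2 fold change 0.74 ± 0.560, adjusted p = 0.419). VeKO libraries ranged from 11.5 to 85.3 CPM (median 29.6) in CL and from 28.7 to 234 CPM (median 101) in UUO kidneys (log2 fold change 1.5 ± 0.612, adjusted p = 0.139). Neither was called, and each group was split by the form of the library name, as given below. PbWT libraries rose from 11.2, 11.8, 16.8, and 17.7 CPM to 34.9, 51.8, 61.7, and 65.9 CPM (log2 fold change 1.84 ± 0.256, adjusted p = 2.72e-06). PbKO libraries rose from 5.98, 6.80, 7.5, and 7.67 CPM to 16.7, 38.1, 44.5, and 48.7 CPM (log2 fold change 2.53 ± 0.336, adjusted p = 3.03e-05), a call lost over all 12 groups (adjusted p = 0.117). The ABT call was lost when thinned (log2 fold change 1.12, adjusted p = 0.0559).

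The next question was whether treatment with ABTAA altered these genes. None of the 7 tested members differed between ABT and IgG mice in UUO kidneys, in CL kidneys, or in the response to UUO, and neither did any other gene: in each of these comparisons 0% of 9579 genes was called. At an unadjusted p under 0.05 there were 344, 311, and 323 genes, none of them a member, and DESeq2 called 0 in all 3 (260, 284, and 262 at an unadjusted p under 0.05). In UUO kidneys Ccl2 stood at a median of 16.8 CPM in ABT and 28.1 CPM in IgG mice, with overlapping libraries (log2 fold change -0.38 ± 0.280, adjusted p = 0.999). Cxcl1 stood at medians of 42.1 and 55.9 CPM (log2 fold change -0.29 ± 0.264). The remaining log2 fold changes were -0.25 for Il34 (SE 0.344), -0.16 for Cxcl10 (SE 0.240), -0.11 for Cx3cl1 (SE 0.239), -0.09 for Cxcl16 (SE 0.184), and 0.10 for Csf1 (SE 0.295). Of the members fitted without the filter, Ccl5 differed by -0.50 ± 0.347, Ccl7 by -0.21 ± 0.419, and Cxcl2 by 0.13 ± 0.377. The median of the 7 members was -0.16, against 0.01 for all genes. In CL kidneys the 7 tested members lay between -0.70 ± 0.433 (Cxcl10) and 0.80 ± 0.452 (Il34), and their differences in response between -1.05 ± 0.567 (Il34) and 0.54 ± 0.486 (Cxcl10). These standard errors leave room for changes of the size seen, and a p above the threshold does not show that the groups were alike. With plain names ABT UUO libraries held 24.1 to 80.3 CPM of Cxcl10 and IgG UUO libraries 64.0 to 145 CPM, while with joined names they held 88.6 to 134 CPM and 73.1 to 111 CPM. This difference between the forms was 0.98 on the log2 scale (SE 0.363) and was not called (adjusted p = 0.985).

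**Figure D3:**
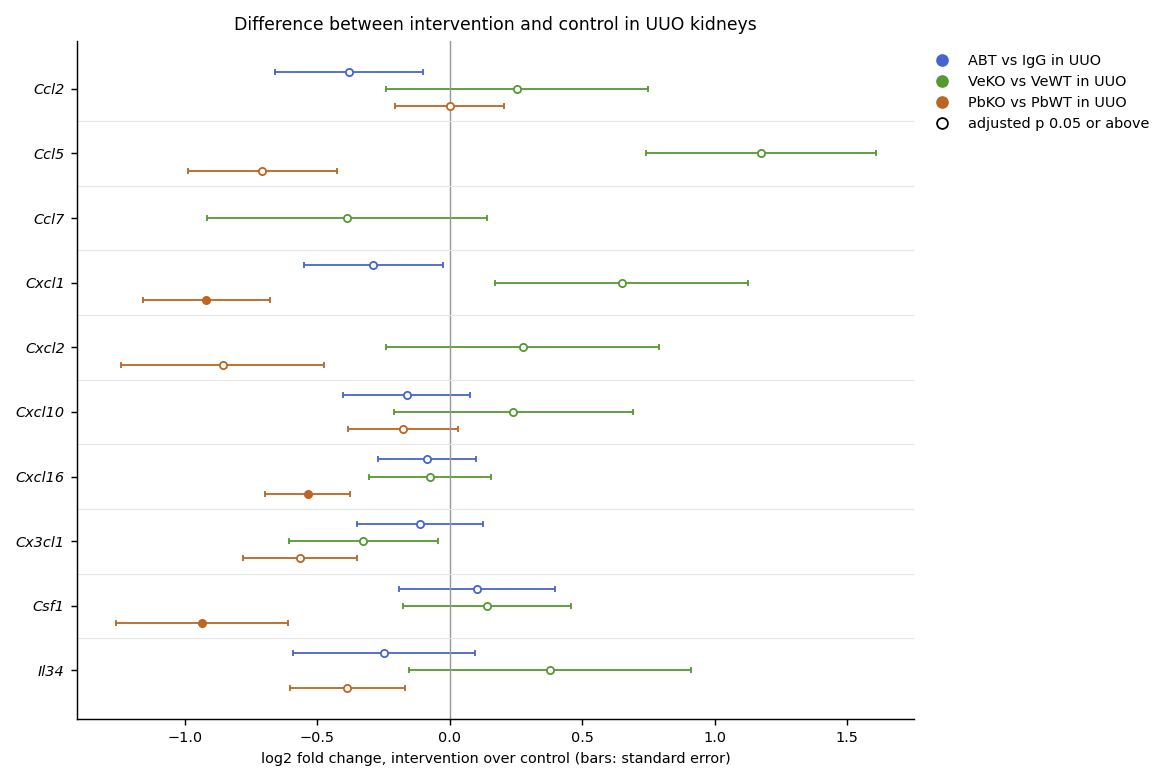
Log2 fold change of each member between treated or knockout and control mice in UUO kidneys (horizontal axis) in the 3 arms (colors), with standard errors as bars. Filled points, Cxcl1, Cxcl16, and Csf1 in the Pdgfb arm, had an adjusted p under 0.05, and all others are open. Members that did not pass the filter of an arm have no point there.

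In the Veptp arm, likewise, no member was called between VeKO and VeWT mice in UUO kidneys, in CL kidneys, or in the response to UUO (0% of 11916 genes in each, with 424, 229, and 324 at an unadjusted p under 0.05). Of the members, Ccl5 alone was among the 424 (unadjusted p = 0.0101 in the quasi-likelihood F-test), and none was among the 229 or the 324. DESeq2 called 1 gene, no member, in UUO kidneys and 0 in the others (402, 206, and 309 unadjusted). The largest difference in UUO kidneys was that of Ccl5, at 9.45 to 45.7 CPM (median 27.0) in VeKO and 2.28 to 34.0 CPM (median 9.00) in VeWT libraries, a log2 fold change of 1.18 ± 0.434 (adjusted p = 1.00). The other 9 members lay between -0.39 for Ccl7 (SE 0.529) and 0.65 for Cxcl1 (SE 0.477), and the median of all 10 was 0.25, against 0.01 for all genes. Ccl2, at medians of 26.5 and 25.9 CPM, differed by 0.25 ± 0.495, but by -0.82 with the number as a replicate block beside the form, and by -0.21 without VeKO UUO replicate 5, neither of them called. Its libraries ran in opposite directions by form, with 0 to 17.1 CPM in VeKO and 9.21 to 26.5 CPM in VeWT under plain names, and 35.8 to 91.7 CPM and 25.4 to 50.5 CPM under joined names. That difference between the forms was 1.77 ± 0.725 and was not called (adjusted p = 0.826). Cx3cl1 differed by -0.33 ± 0.282, Il34 by 0.38 ± 0.532, Cxcl2 by 0.27 ± 0.517, Cxcl10 by 0.24 ± 0.451, Csf1 by 0.14 ± 0.317, and Cxcl16 by -0.07 ± 0.230. In CL kidneys the members lay between -0.55 ± 1.22 (Ccl7) and 1.94 ± 1.03 (Ccl5), and their differences in response between -1.15 ± 1.31 (Cxcl2) and 0.76 ± 0.812 (Il34).

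Ccl5 was also compared within each form. Among libraries with joined names, VeKO UUO libraries stood at 15.8, 22.4, 31.7, and 33.3 CPM and VeWT UUO libraries at 2.28, 3.68, 8.08, and 9.92 CPM, a log2 fold change of 2.10 ± 0.341 (adjusted p = 0.0125 over the genes of these libraries). Among libraries with plain names, VeKO stood at 9.45, 12.6, 43.0, and 45.7 CPM and VeWT at 7.95, 9.98, 21.5, and 34.0 CPM (log2 fold change 0.20 ± 0.591, adjusted p = 0.936). The groups were apart in the first form and overlapped in the second, and the difference between the forms was 1.93 and was not called (adjusted p = 0.786). Of the 8 UUO libraries with joined names, 4 have the numbers that carry opposite genotypes in the CL kidney. Without the 8 such libraries of the arm the Ccl5 difference was 0.95 (adjusted p = 1.00). In UUO libraries with plain names summed tubule markers were 5740 to 8484 CPM in VeKO and 4861 to 6393 CPM in VeWT mice, macrophage and monocyte markers 224 to 561 CPM and 618 to 888 CPM, and fibroblast markers 120 to 365 CPM and 416 to 537 CPM. With joined names the sums were 3044 to 4673 CPM and 3568 to 4562 CPM, 492 to 814 CPM and 524 to 625 CPM, and 204 to 444 CPM and 475 to 598 CPM. Their part in these differences was not tested.

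Other members split by the form as well. Il34 stood at 64.3 to 113 CPM in VeWT CL libraries with joined names and at 3.37 to 16.8 CPM in those with plain names, and in VeWT UUO libraries at 129 to 191 CPM and 18.6 to 51.0 CPM. Across the arm its level was higher by 2.36 ± 0.257 on the log2 scale with joined names (adjusted p = 6.01e-10). Cx3cl1 was higher by 1.11 ± 0.128 (adjusted p = 2.35e-09), Csf1 by 0.73 ± 0.268 (adjusted p = 0.0181), and Cxcl16 by 0.36 ± 0.137 (adjusted p = 0.0242), while Cxcl10 was lower (log2 difference -0.96 ± 0.353, adjusted p = 0.0181). In the ABTAA arm the form moved Il34 by 0.95 ± 0.233 (adjusted p = 0.00120) and Cx3cl1 by -0.63 ± 0.150 (adjusted p = 0.000803), so that Cx3cl1 differed in opposite directions in the 2 arms. With the form as a covariate, calls were more frequent over all genes (16.6% rose in VeWT and 10.7% in VeKO mice), and all 10 members rose with obstruction in both genotypes of the Veptp arm, Il34 by 0.98 in VeWT (adjusted p = 0.00363) and by 1.81 in VeKO mice (adjusted p = 2.91e-05). The response of a member to UUO was not called different between the forms in either arm (0.321% of genes in the Veptp and 0.0418% in the ABTAA arm were). The smallest adjusted p among these was that of Cxcl10 in the Veptp arm, with a difference of 2.46 ± 0.717 (adjusted p = 0.191). VeKO CL libraries with plain names numbered 2, and with that form alone no member was called in VeKO UUO against CL kidneys, and neither was any other of 7778 genes. The log2 fold changes were then 1.48 for Cxcl1, 2.33 for Ccl5, 1.63 for Cxcl10, and 0.67 for Cxcl16, well under the 4.04, 4.17, 3.42, and 1.30 over both forms. The 2 plain VeKO CL libraries were E7 and B8, at 0 and 27.1 CPM of Cxcl1 and 3.84 and 36.1 CPM of Cxcl10, so these smaller values rest in part on library B8. Without the 8 libraries with opposite genotypes 2 members were called in VeKO UUO against CL kidneys, Ccl5 and Cxcl1.

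**Figure D4:**
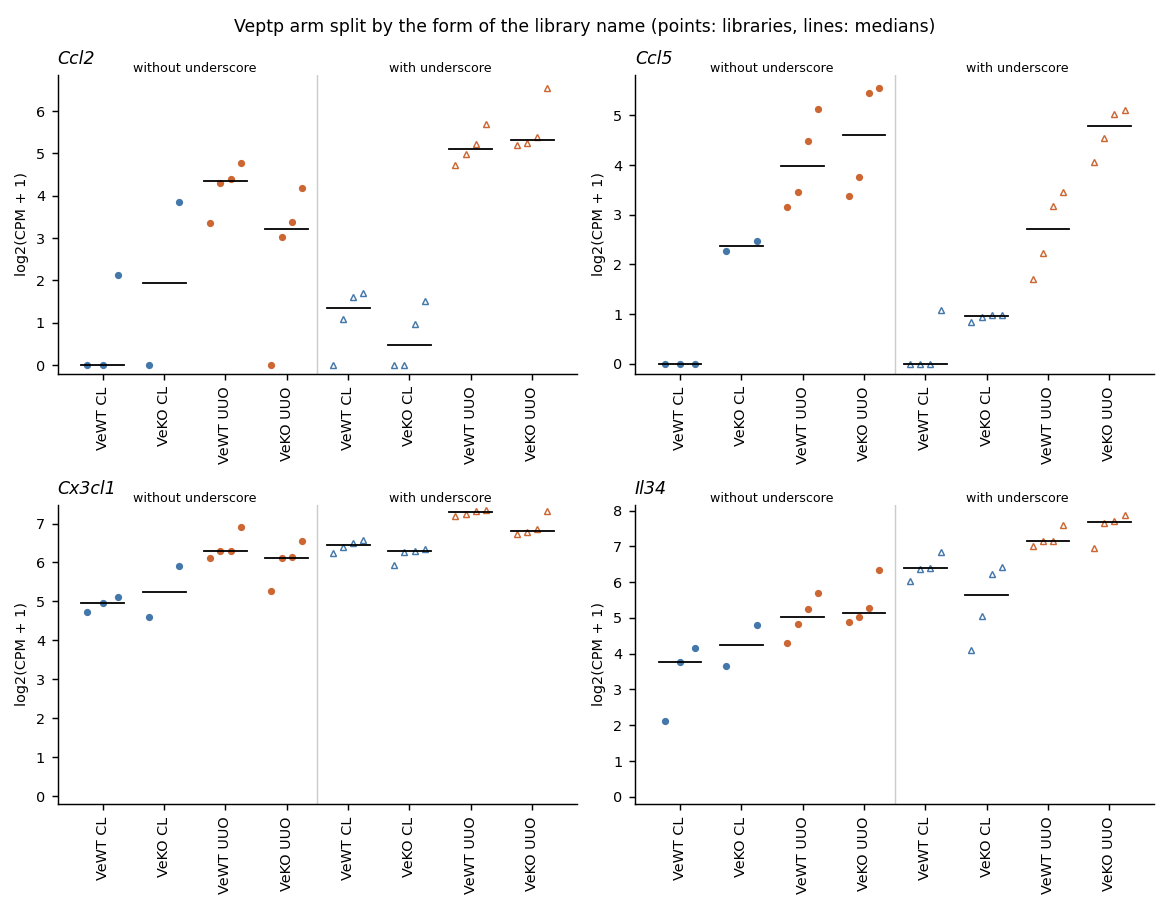
Ccl2, Ccl5, Cx3cl1, and Il34 in each library of the Veptp arm as log2(CPM + 1), by group and split by the form of the library name. Filled circles are plain and open triangles joined names, blue is CL and orange UUO, and lines are medians. Ccl5 was apart between VeKO and VeWT UUO kidneys in the right part of its panel alone, and Il34 was higher in the right part in all 4 groups.

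Among the interventions, only the Pdgfb arm had called differences among the members in the comparisons fitted over a whole arm. In UUO kidneys 3 of 9 tested members were lower in PbKO than in PbWT mice, Cxcl1, Cxcl16, and Csf1, and none was higher, where 6.58% of all genes were lower and 12.0% higher. Without PbKO UUO replicate 1 (library F10) Cxcl1 alone was called. Fitted without the filter and with all libraries, 4 of 10 were lower and 0 higher, where 3.38% of all genes were lower and 5.04% higher. Of the 9, 8 had a log2 fold change below 0, with a median of -0.56 against -0.02 for all genes. Every PbKO UUO library lay below every PbWT UUO library for 4 of 9 (Cxcl1, Cxcl2, Cxcl16, and Csf1), as it did for 9.58% of all genes. Of these, Cxcl2 and Csf1 passed the filter on low counts through PbWT UUO libraries, the high group here. PbWT UUO libraries held 12 to 29 counts of Cxcl2 and 13 to 47 of Csf1. PbKO UUO libraries held 2 to 10 and 2 to 12, so the separation of these members is not independent of the filter. In CL kidneys no member was called (0% of 10923 genes, 378 at an unadjusted p under 0.05; DESeq2 0 and 234), and the response to UUO of no member was called different, where the log2 fold change between UUO and CL kidneys was called higher in PbKO than in PbWT mice for 6.66% of all genes, some of which fell less, and lower for 1.90% (728 and 207 genes, but 315 and 628 without TMM factors).

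Cxcl1 stood at 59.6, 60.7, 68.6, and 93.5 CPM in PbWT UUO and at 3.34, 39.2, 41.4, and 46.1 CPM in PbKO UUO libraries, a log2 fold change of -0.92 ± 0.239 (adjusted p = 0.00693). All 4 PbKO libraries were below the PbWT range, and 1 of them, library F10, was far below the others. That library was the shallowest of the arm, with 337545 counts, of which 1 was Cxcl1. Without it the difference was -0.74 (adjusted p = 0.00689), while in a fit over all 12 groups it was -1.01 and not called (adjusted p = 0.257). Cxcl16 stood at 154, 164, 188, and 189 CPM in PbWT UUO and 76.7, 103, 140, and 143 CPM in PbKO UUO libraries, a log2 fold change of -0.54 ± 0.161 (adjusted p = 0.0204). Its groups did not overlap, but the call did not survive the removal of any single one of 4 UUO libraries, PbWT replicates 1 and 4 and PbKO replicates 1 and 3 (adjusted p from 0.0550, without replicate 1, to 0.0850), and it was also lost when libraries were thinned to the shallowest (adjusted p = 0.0771). Csf1 stood at 12.7, 16.9, 17.9, and 18.6 CPM in PbWT UUO and 6.67, 7.03, 10.1, and 10.3 CPM in PbKO UUO libraries, a log2 fold change of -0.94 ± 0.326 (adjusted p = 0.0458). Here too the groups were apart, on 117 and 32 counts in all. The call was lost in DESeq2 (adjusted p = 0.0903) and with Xist, an RNA of female cells, as a covariate (adjusted p = 0.0915). It was also lost without any single one of 9 libraries (PbKO CL replicates 3 and 4, PbWT UUO replicates 1, 2, and 3, and every PbKO UUO replicate), with adjusted p from 0.0507 to 0.151. The fit over all 12 groups also ended the calls of Cxcl16 (adjusted p = 0.303) and Csf1 (adjusted p = 0.262).

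Cxcl2, at 9.41, 11.3, 11.5, and 11.8 CPM in PbWT UUO and 3.36, 5.98, 6.67, and 7.81 CPM in PbKO UUO libraries, was apart without passing the test (log2 fold change -0.86 ± 0.383, adjusted p = 0.121). Ccl5 was 22.0, 22.2, 25.6, and 34.3 CPM against 10.1, 10.9, 13.3, and 25.6 CPM (log2 fold change -0.71 ± 0.281, adjusted p = 0.0768). A single PbKO library, replicate 3, lay within the PbWT range, and without it the difference was -1.20 and was called (adjusted p = 0.00937). Cx3cl1 differed by -0.56 ± 0.215 (adjusted p = 0.0693; called without PbWT UUO replicate 1, adjusted p = 0.0468, without the filter, 0.0393, in the exact test, 0.0499, thinned, 0.0437, and without TMM factors, 0.00481), Il34 by -0.39 ± 0.216 (adjusted p = 0.232), Cxcl10 by -0.18 ± 0.208 (adjusted p = 0.618), and, without the filter, Ccl7 by -0.73 ± 0.485 (adjusted p = 0.491). Ccl2, at 18.2, 26.2, 47.0, and 52.7 CPM against 16.7, 32.0, 38.1, and 42.7 CPM, had a fitted log2 fold change of 0.00 ± 0.206 (adjusted p = 0.999). Its sign turned under 11 of 23 alternatives, those that leave out single libraries included. Differences between members were not tested. In CL kidneys Il34 was the member with the lowest unadjusted p, with 11.2, 11.8, 16.8, and 17.7 CPM in PbWT and 5.98, 6.80, 7.5, and 7.67 CPM in PbKO libraries (log2 fold change -1.08 ± 0.396, adjusted p = 1.00). These libraries did not overlap, on 48 and 18 counts. The other members lay between -1.43 ± 1.43 (Ccl2) and 1.03 ± 1.38 (Cxcl2) in CL kidneys, and the differences in response between -1.89 ± 1.54 (Cxcl2) and 1.43 ± 1.45 (Ccl2).

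Other measures moved with the Pdgfb genotype in UUO kidneys. Without TMM factors the median of all genes was -0.28, higher and lower calls were 667 and 2378 in place of 1315 and 719, and 7 of 9 members were called lower. Summed macrophage and monocyte markers were 493 to 844 CPM in PbWT and 344 to 412 CPM in PbKO UUO libraries, with 5 of 9 called lower and none of the 9 at 0 in a whole group. Summed fibroblast markers were 319 to 436 CPM and 126 to 260 CPM (3 of 4 lower), summed endothelial markers 124 to 167 CPM and 76.0 to 131 CPM (2 of 4 lower), and summed tubule markers 2941 to 3425 CPM and 4481 to 7483 CPM (4 of 5 higher). Their part in the differences of Cxcl1, Cxcl16, and Csf1 was not tested.

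**Figure D5:**
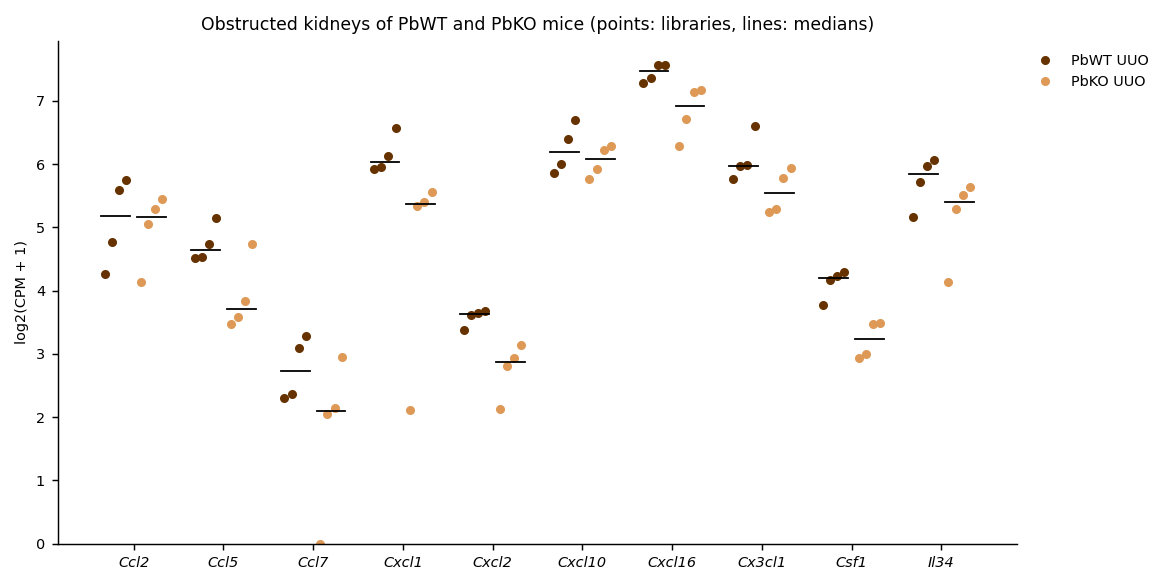
Each member in the 4 PbWT (brown) and 4 PbKO (light orange) UUO libraries as log2(CPM + 1) on the vertical axis, with lines at medians. All PbKO points lie below all PbWT points for Cxcl1, Cxcl2, Cxcl16, and Csf1, and the points of Ccl2 and Cxcl10 are interleaved.

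The receptors of these ligands were measured in the same libraries. Of 15 receptors, decoy receptors, and coreceptors listed, 6 were tested in the ABTAA arm, and 4 rose and 1 fell in IgG UUO kidneys (16.0% and 18.4% of all genes) and 3 and 1 in ABT mice (12.7% and 12.5%). In the Veptp arm 8 were tested, and 5 rose and 1 fell in VeWT mice (10.0% and 8.38% of all genes) and 3 and 1 in VeKO mice (4.47% and 3.47%). In the Pdgfb arm 7 were tested, and 5 rose and 2 fell in PbWT mice (17.9% and 19.4% of all genes) and 1 and 0 in PbKO mice (3.94% and 2.40%). Ccr2, the receptor of the CCL2 and CCL7 proteins, rose in the control mice of all arms, by 3.24 ± 0.339 in IgG, 3.71 ± 0.547 in VeWT, and 3.62 ± 0.342 in PbWT mice on the log2 scale. Cx3cr1, the receptor of fractalkine, rose by 2.44 ± 0.350, 2.36 ± 0.340, and 3.11 ± 0.422. Csf1r, the receptor of both growth factors, rose by 0.59 ± 0.156 in IgG and 0.49 ± 0.165 in PbWT mice. Sdc1, a proteoglycan that can bind IL34, rose by 1.54, 1.02, and 1.25. Ccr1, a receptor of several CC chemokines, rose by 3.07 in VeWT mice. Ackr4, which scavenges other CC chemokines, fell by 1.14 in IgG, 0.95 in VeWT, and 1.35 in PbWT mice, and Ackr3, a scavenger of the CXCL12 protein, fell by 0.59 in PbWT mice.

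In UUO kidneys of PbKO mice 5 of the 7 tested receptors were lower than in PbWT mice and 1 was higher, where 6.58% of all genes were lower and 12.0% higher. Ccr2 differed by -1.07 ± 0.248 (adjusted p = 0.00330), from 51.2 to 82.3 CPM in PbWT to 23.4 to 41.4 CPM in PbKO libraries, while its ligand Ccl2 stayed at a log2 fold change of 0.00. Cx3cr1 differed by -1.22 ± 0.314 (adjusted p = 0.00710), Csf1r by -0.64 ± 0.167 (adjusted p = 0.00791), and Sdc1 by -0.74 ± 0.230 (adjusted p = 0.0261). Ackr4 was the receptor that was higher (0.68 ± 0.223, adjusted p = 0.0343). Of these, Ccr2, Cx3cr1, and Csf1r are carried by monocytes and macrophages, whose markers were lower as given above, and the part of those cells was not tested.

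Of 28 other chemokines, 5 were tested in the ABTAA, 7 in the Veptp, and 9 in the Pdgfb arm. Ccl9 rose by 2.68 in IgG, 4.05 in VeWT, and 2.59 in PbWT mice, Ccl6 by 2.04, 3.75, and 2.08, and Cxcl14 by 1.97, 1.63, and 0.93, and Ccl20 (3.91) and Pf4 (3.18) rose in PbWT mice. The homeostatic Cxcl12 went the other way, with log2 fold changes of -0.92 ± 0.220 in IgG, -1.04 ± 0.283 in VeWT, and -0.87 ± 0.214 in PbWT mice, and Ccl25 fell by 0.76 in VeWT and 0.85 in PbWT mice. Between PbKO and PbWT UUO kidneys Cxcl12 was the 1 other chemokine called of 9 tested, and it was higher (0.76 ± 0.216, adjusted p = 0.0148). In this comparison 12.0% of all genes were higher and 6.58% lower. Ccl25 had the 1 called difference in response of the 9, in the Pdgfb arm (1.69 ± 0.427, adjusted p = 0.0126), where 6.66% of all genes were called higher and 1.90% lower. Of 5 other myeloid growth factors 1 was tested in each arm, and it was called in no comparison.

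Of 15 regulators and processing enzymes, 12 were tested in each arm. In UUO kidneys 10 rose in IgG (background 16.0%), 10 in ABT (12.7%), 6 in VeWT (10.0%), 5 in VeKO (4.47%), 9 in PbWT (17.9%), and 6 in PbKO mice (3.94%), and none fell. The largest rises were those of members of the NF-kappaB system and of an interferon regulatory factor. Nfkbiz rose by 2.50 in IgG, 2.05 in VeWT, and 2.28 in PbWT mice, Relb by 2.11, 2.27, and 2.39, Nfkb2 by 1.97, 1.79, and 1.72, and Irf1 by 1.91, 1.82, and 1.98. In PbKO UUO kidneys 5 were lower than in PbWT kidneys (background 6.58%): Nfkbiz (-0.93 ± 0.210, adjusted p = 0.00267), Nfkb1 (-0.92 ± 0.200, adjusted p = 0.00189), Irf1 (-0.63, adjusted p = 0.0137), Nfkbia (-0.62, adjusted p = 0.0220), and Rela (-0.55, adjusted p = 0.0309). Nfkb1 was also the 1 of them with a called difference in response (-1.41 ± 0.317, adjusted p = 0.00565), where 1.90% of all genes were called lower and 6.66% higher.

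Likeness between genes was described after removing the mean of each group within the form of the library name, over 75 libraries and 9554 genes. Among the 7 members in that set the 21 pairs had Pearson correlations from -0.15 to 0.49 (median 0.10), and 14 were positive. The gene most like Ccl2 was Arhgap11a (r = 0.59), the one most like Cxcl1 was Vcam1 (0.59), for Cxcl10 it was Adamts1 (0.64), for Cxcl16 Cdkn3 (0.61), for Cx3cl1 Stat3 (0.54), for Csf1 Gm20496 (0.56), and for Il34 Cpe (0.71). The points share libraries, and in counts this sparse weak correlations are no finding.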

How the data were processed

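Libraries were prepared by the study from whole-kidney RNA with a method based on Smart-seq3, in which molecules carry unique identifiers. The authors aligned reads with STAR (2.7.3a) to mm10, removed duplicates with UMI-tools (1.1.4), and counted with featureCounts from Subread (1.4.6-p5), per the labels and the submitters' processing notes, and they deposited raw counts per gene for all 75 libraries in a single table. The gene annotation used for counting is not given in the sources used here. Counts that remain after removal of duplicates limit the precision of rare genes, and intervals and floors (3 counts over a group) cover counting error only. CL and UUO kidneys came from the same mice, apart from the 2 sham kidneys, and the labels tie only some of them. Each library was treated as a separate mouse, which the labels do not state, and for VeWT UUO the 8 libraries outnumber the mice given for that genotype, so p values there may in part measure technical spread.

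Counts were analyzed with edgeR (4.0.16) in R (4.3.3): 1 quasi-likelihood fit per arm with 4 groups, TMM factors, and the default filter on low counts by group, which left 9579 genes in the ABTAA, 11916 in the Veptp, and 10923 in the Pdgfb arm. The Benjamini-Hochberg adjustment ran over these genes, with calls under 0.05, and standard errors were derived from the F statistic. The scripts were tested on simulated data. The members, the lists, and the tests were chosen with earlier results of these data known. All 10 members were to be named in every comparison, and where none was called some are given by their range. From each list the 3 largest called rises and falls in control mice were named, with any gene called between treated and control mice, except 1 listed gene whose values are not reported here. DESeq2 (1.42.0), the edgeR exact test that the study used, and the other alternatives in the closing section were run as well. Tests between the forms of library names were added after seeing the data.

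Library numbers tied CL and UUO kidneys in the ABTAA arm, where deviations from group means correlated for the 3 shared numbers (r = 0.39, 0.20, and 0.16, against a median of -0.06 for different numbers).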

Additional observations from a re-analysis of the deposited data

Results flagged for a closer look

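Within groups of 4 to 10 libraries, the gap between an extreme library and its nearest neighbor was divided by the range of the group, both as log2(CPM + 1), and compared with Dixon's critical value for each member. Of the 96 pairs of a member and a group with over 3 counts in at least 1 library, 7 exceeded it, and chance alone gives about 1 in 20. In PbKO UUO kidneys Cxcl1 stood at 3.34 CPM (1 count) in library F10 and at 39.2 to 46.1 CPM in the others. Ccl7 had no count, 0 CPM, in IgG UUO library H6, against 4.71 to 24.1 CPM in the others, and 0 CPM in ABT UUO library C7, against 4.01 to 11.9 CPM. Cxcl2 stood at 23.7 CPM (8 counts) in ABT UUO library H5, against 7.47 to 11.4 CPM. Cxcl10 stood at 36.1 CPM (8 counts) in VeKO CL library B8, against 1.84 to 5.77 CPM, and this library also held the highest Ccl2 and Cxcl1 of its group. Cxcl16 stood at 104 CPM (40 counts) in IgG UUO library D6, against 162 to 187 CPM, and Cx3cl1 at 23.0 CPM (6 counts) in VeKO CL library E7, against 58.7 to 80.8 CPM.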

How the results depend on the processing

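Of the values of single members under alternatives other than leaving out a library, 658 kept their direction and side of the threshold, 25 lost and 19 gained a call, and 16 turned direction. Thinned to the shallowest library, the members called in UUO against CL kidneys were 4 of 4 tested in IgG, 3 of 4 in ABT, 4 of 5 in VeWT, 3 of 5 in VeKO, and 5 of 6 in PbKO mice (16.9%, 10.7%, 7.47%, 2.38%, and 2.64% of all genes rose). In VeKO mice 0 were called with plain names alone and 2 without the 8 libraries of opposite genotypes. In PbKO mice the exact test called 5 of 5 tested (3.91% of all genes rose) and the fit over all 12 groups 5 of 10 (1.01%). Between PbKO and PbWT UUO kidneys 7 of 9 were called without TMM factors (21.8% of all genes were lower), 0 of 10 over all 12 groups (0.500%), and 1 to 3 when single libraries were left out. Between VeKO and VeWT UUO kidneys 1 (Ccl5) was called with joined names alone, where 0.00796% of 12556 genes were higher and 0% lower. The cause was not tested where no value above shows it.

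Between ABT and IgG UUO kidneys Cxcl10 (0.32), Cxcl16 (0.069), and Il34 (0.040) turned direction with joined names alone and Cx3cl1 (0.020) when thinned. Between VeKO and VeWT UUO kidneys Ccl7 (0.23) and Cxcl16 (0.10) did so with joined names alone, and without single libraries the ranges were -0.21 to 0.44 for Ccl2, -0.16 to 0.043 for Cxcl16, and -0.0051 to 0.31 for Csf1. Between PbKO and PbWT UUO kidneys Ccl2 was -0.25 without TMM factors, -0.073 in DESeq2, -0.046 in the exact test, -0.083 over all 12 groups, -0.071 with Xist as a covariate, -0.30 thinned, and -0.25 to 0.28 without single libraries, and Cxcl10 was -0.29 to 0.0011 without single libraries. None of these was called.

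With the number as a replicate block beside the form, Csf1 between ABT and IgG UUO kidneys was -0.019, and between VeKO and VeWT UUO kidneys Ccl2 was -0.82, Cxcl10 -0.053, and Csf1 -0.26. The block called Il34 in VeWT (1.11) and Cx3cl1 (0.72) and Il34 (1.82) in VeKO UUO against CL kidneys, as did the form alone. In the Veptp arm libraries shared only numbers (r from 0.06 to 0.43, with 0.43, 0.29, 0.13, and 0.28 for the numbers 3, 4, 7, and 8 of opposite genotypes, against a median of -0.03 for different numbers), with 6 of 8 UUO libraries most like the CL library of their own number. Depth limits Ccl2, Ccl5, Ccl7, Cxcl1, and Cxcl2 in CL kidneys, where each held 0 to 24 counts over all libraries of a group.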

Other observations

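Within groups and forms of library name, the genes that followed the best match in likeness were Rnf135 (r = 0.56) and Fxyd5 (0.54) for Ccl2, Tmem43 (0.56) and Tap2 (0.55) for Cxcl1, Havcr1 (0.60) and Slc44a3 (0.59) for Cxcl10, Serpina3g (0.54) and Lama5 (0.50) for Cx3cl1, Smox (0.52) and Sart3 (0.52) for Csf1, and Eri2 (0.71) and Adh1 (0.70) for Il34, over 75 libraries. Havcr1 encodes a marker of injured proximal tubule.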
